A study of Homo sapiens with 5 samples.

Results

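H3K27me3 domains of DMSO-treated cells were described by where, inside each of them, H3K27me3 was still called after CPI-0209. HT1376, an established cell line from a human bladder carcinoma, was used, and CPI-0209 is a small-molecule inhibitor of EZH2. The cells received either CPI-0209 at 250 nM or its vehicle DMSO, with 8 days of treatment, and chromatin was immunoprecipitated with an antibody against H3K27me3 or against EZH2 and sequenced (ChIP-seq). The labels name 4 ChIP libraries, 1 per group, and 1 input library that was not used here. They also speak of a 4 day treatment and of an antibody against acetylated H3K27, neither of which was analysed here. Each library is represented by a list of intervals in hg38 coordinates with no score or read count, so the depth is unknown and a position is either called or not.

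A domain is a set of DMSO intervals that overlap by at least 1 bp, merged, and a piece is a merged CPI-0209 interval cut to the domain it lies in. Both H3K27me3 lists were used whole. The 41342 DMSO intervals gave 21641 domains with a median width of 8.6 kb, and the 18865 CPI-0209 intervals gave 15838 merged intervals, out of 83524 merged intervals in the 4 lists. Of the merged CPI-0209 intervals, 94.4% (14956) lay wholly inside 1 DMSO domain and 187 lay outside every domain. All intervals sit on a grid of 200 bp windows, which is the finest position the lists can give. With 1 library per group no difference between DMSO and CPI-0209 had a replicate check, and none was tested. The limits in brackets are exact (Clopper-Pearson) 95% binomial limits. They cover counting error only, and neighbouring domains are not independent.

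EZH2 is the enzyme within Polycomb repressive complex 2 (PRC2) that places up to 3 methyl groups on lysine 27 of histone H3. PRC2 gathers at CG-rich promoters of silent developmental genes and spreads the mark from there, helped by its subunit EED, which binds H3K27me3 already present. Domains over such promoters and broad domains over silent gene bodies and gene-poor stretches are both found in carcinoma cells.

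Promoter sequences are shown first, because the number of CG dinucleotides at a gene start went with whether a piece covered it. The 3 pairs come from the widest DMSO domains that held 1 piece and 2 protein-coding gene starts of which 1 lay under the piece, a choice made after values were seen. A wider one of 25.2 kb was passed over because it pairs the uncharacterised LOC128966684 (13 CG, under the piece) with the multi-copy chemokine gene CCL3L3 (2 CG, outside). Each sequence is 300 bases long, from 250 before to 50 after the gene start, written 5′ to 3′ on the strand of the gene, from RefSeq on GRCh38.p14. Capitals mark every CG dinucleotide.
TDRD9: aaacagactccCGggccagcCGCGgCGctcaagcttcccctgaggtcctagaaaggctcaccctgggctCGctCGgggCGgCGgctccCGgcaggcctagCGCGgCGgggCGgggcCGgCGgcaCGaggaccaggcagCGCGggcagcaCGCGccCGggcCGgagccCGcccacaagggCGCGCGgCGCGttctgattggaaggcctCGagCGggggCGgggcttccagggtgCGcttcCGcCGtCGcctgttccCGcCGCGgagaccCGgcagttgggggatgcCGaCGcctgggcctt
RD3L: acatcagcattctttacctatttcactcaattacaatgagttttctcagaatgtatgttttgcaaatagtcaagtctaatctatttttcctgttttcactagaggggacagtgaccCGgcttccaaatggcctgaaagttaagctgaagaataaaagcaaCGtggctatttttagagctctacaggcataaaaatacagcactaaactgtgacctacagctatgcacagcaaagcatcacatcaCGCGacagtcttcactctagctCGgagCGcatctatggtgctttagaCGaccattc
LRRC26: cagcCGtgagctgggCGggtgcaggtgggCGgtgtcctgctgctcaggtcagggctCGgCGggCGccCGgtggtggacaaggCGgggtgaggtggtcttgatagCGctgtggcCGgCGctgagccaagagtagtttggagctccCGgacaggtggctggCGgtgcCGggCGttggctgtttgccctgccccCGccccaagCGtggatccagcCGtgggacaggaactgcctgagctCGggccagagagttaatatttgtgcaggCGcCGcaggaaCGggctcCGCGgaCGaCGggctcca
TMEM210: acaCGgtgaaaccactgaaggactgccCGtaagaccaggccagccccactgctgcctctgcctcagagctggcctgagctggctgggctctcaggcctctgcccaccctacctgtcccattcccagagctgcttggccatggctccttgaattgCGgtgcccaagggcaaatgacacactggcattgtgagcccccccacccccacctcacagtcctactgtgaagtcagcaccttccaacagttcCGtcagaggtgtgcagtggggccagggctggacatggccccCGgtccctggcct
MYBPH: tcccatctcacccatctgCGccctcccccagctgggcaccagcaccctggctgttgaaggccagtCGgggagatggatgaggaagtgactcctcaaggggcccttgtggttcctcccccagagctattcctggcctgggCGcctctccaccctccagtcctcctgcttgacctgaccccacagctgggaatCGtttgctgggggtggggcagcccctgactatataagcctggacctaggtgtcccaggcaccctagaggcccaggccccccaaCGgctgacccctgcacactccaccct
CHI3L1: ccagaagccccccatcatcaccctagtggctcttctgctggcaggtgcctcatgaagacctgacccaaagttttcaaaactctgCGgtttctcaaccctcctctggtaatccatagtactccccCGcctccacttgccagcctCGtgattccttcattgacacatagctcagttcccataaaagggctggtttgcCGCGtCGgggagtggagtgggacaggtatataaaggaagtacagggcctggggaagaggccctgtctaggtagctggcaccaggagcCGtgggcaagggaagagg
TDRD9, a germline helicase of the piRNA pathway, and RD3L share a 22.6 kb domain on chromosome 14 with a single 5.2 kb piece. The TDRD9 promoter (chr14:103928206-103928505, plus strand) has 41 CG and lay under the piece. The RD3L promoter (chr14:103942480-103942779, minus strand) has 7 CG and lay in the uncovered remainder. LRRC26, an auxiliary subunit of a potassium channel, and TMEM210 share a 21.6 kb domain on chromosome 9 with a 16.4 kb piece. The LRRC26 promoter (chr9:137170002-137170301, minus strand) has 26 CG and lay under the piece. The TMEM210 promoter (chr9:137172007-137172306, minus strand) has 5 CG and begins just past the piece's end. That piece ends at 137172000 and the TMEM210 start is at 137172056, closer than 1 window of 200 bp. Its place outside the piece is thus at the limit of what the lists can resolve. The third pair goes the other way. MYBPH, a myosin-binding protein, and CHI3L1, a secreted chitinase-like glycoprotein, share a 21.4 kb domain on chromosome 1 whose 12.6 kb piece starts at the domain's own end. The MYBPH promoter (chr1:203175777-203176076, minus strand) has 5 CG and lay under the piece, while the CHI3L1 promoter (chr1:203186655-203186954, minus strand) has 7 CG and did not. Of 13 such domains, that one included, the promoter under the piece had more CG in 10 and fewer in 3, with medians of 22 CG under the piece and 7 CG outside it.

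The deposited DMSO list does not give every part of a domain the same support, and this bears on every position below. At most 2 intervals of the list overlap at any position, and what the overlapping intervals stand for was not given in the sources used here. Stretches under 1 and 2 intervals were set apart after the overlaps had been seen. Of the domain length, 62.7% lay under 2 intervals. This share was 17.6% in the outermost 1 kb of a domain and 91.6% at 20 kb and more from its ends. CPI-0209 pieces covered 54.5% of the length under 2 intervals and 4.44% of the length under 1. Of the 15753 pieces, 96.0% (95.7 to 96.3%) overlapped a stretch under 2 intervals. Among 8159 domains under 1 interval throughout, 424 held a piece (5.20%, 4.73 to 5.70%), and among 13482 domains with a stretch under 2 intervals, 8461 did (62.8%, 61.9 to 63.6%). The former were narrower, with a median of 5.2 kb against 12.8 kb. Pieces were therefore mostly found where intervals of the DMSO list overlap each other.

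The number of pieces per domain followed domain width. Of the 21641 domains, 8885 held at least 1 piece (41.1%, 40.4 to 41.7%), and 3042 held 2 or more (14.1%). A single piece was found in 5843 domains, 2 or 3 pieces in 2172, and 4 or more in 870, up to 21. The 12756 domains with no piece had a median width of 6.4 kb, and those with a piece 16.2 kb. Among the 4940 domains under 5 kb, 88.2% (87.3 to 89.1%) held no piece. The same was true of 47.9% (46.6 to 49.3%) of the 5316 domains of 10 to 20 kb and of 2 of the 198 domains of 100 kb and wider. In that widest class 91.9% (87.2 to 95.3%) were broken into 4 or more pieces.

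**Figure D1:**
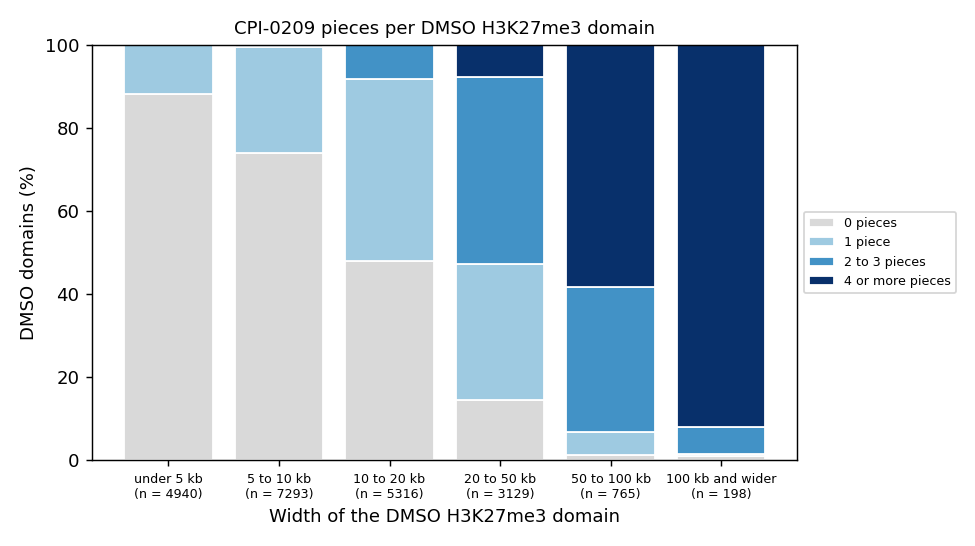
Share of DMSO H3K27me3 domains (y axis, %) with 0, 1, 2 to 3 or 4 and more CPI-0209 pieces, by domain width (x axis, with the number of domains in each class). Domains without a piece make up 88.2% of the narrowest class, and domains with 4 or more pieces 91.9% of the widest.

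Up to a width of 100 kb, wider domains held more pieces for their length. Per 100 kb of domain there were 3.46 pieces in domains under 5 kb, 4.42 in those of 10 to 20 kb, 6.0 in those of 50 to 100 kb and 5.38 in the widest class. The pieces themselves were wider there as well, with medians of 2.0 kb, 4.4 kb, 6.8 kb and 8.2 kb in these classes. The retained length, which is the percent of DMSO domain length under a piece, was 7.01% in domains under 5 kb, 22.3% in those of 10 to 20 kb, 41.4% in those of 20 to 50 kb and 69.5% in those of 100 kb and wider. Over all domains it was 35.8%, and 54.5% where only stretches under 2 DMSO intervals were counted. Neighbouring pieces of a domain were close to each other. The 6868 gaps between them had a median of 2.2 kb, with quartiles of 1.0 kb and 5.2 kb, and 45.6% (44.4 to 46.8%) were under 2 kb.

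Most pieces stopped short of the ends of their domain. In 6915 of the 8885 domains with a piece (77.8%, 76.9 to 78.7%) no piece came within 200 bp of either end, in 1721 a piece reached 1 end and in 249 (2.80%, 2.47 to 3.17%) both. With domains redefined as stretches under 2 DMSO intervals, the share with neither end reached was 39.9%. Pieces were cut at the ends of these stretches, so a piece that crossed an end counted as reaching it. A majority with neither end reached holds for the merged domains only. The setback, measured from each domain end to the outermost piece, had a median of 2.8 kb. It was 0.6 kb in domains under 5 kb, 3.4 kb in domains of 10 to 20 kb, 4.2 kb in domains of 20 to 50 kb and 3.1 kb in the widest class. As a part of domain width it was largest at 5 to 10 kb, with a median of 25.5%, and smallest in the widest class, with 2.30%. In wide domains the setback was thus a rim of a few kilobases.

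Coverage was lowest at both ends of domains of every width class. Each domain was divided into 10 segments of equal length. The end segments of all domains were covered over 20.3% of their length and the 2 middle segments over 43.5%. In domains of 5 to 10 kb the values were 3.89% and 19.9%, in domains of 20 to 50 kb 20.5% and 49.7%, and in domains of 100 kb and wider 56.7% and 73.0%. The ratio of middle to outer was 5.12 at 5 to 10 kb and 1.29 in the widest class. The segments at the lower and the higher coordinate end were covered over 20.8% and 19.9%. In the widest domains the 8 inner segments lay between 69.9% and 76.2%, with no further step towards the centre.

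**Figure D2:**
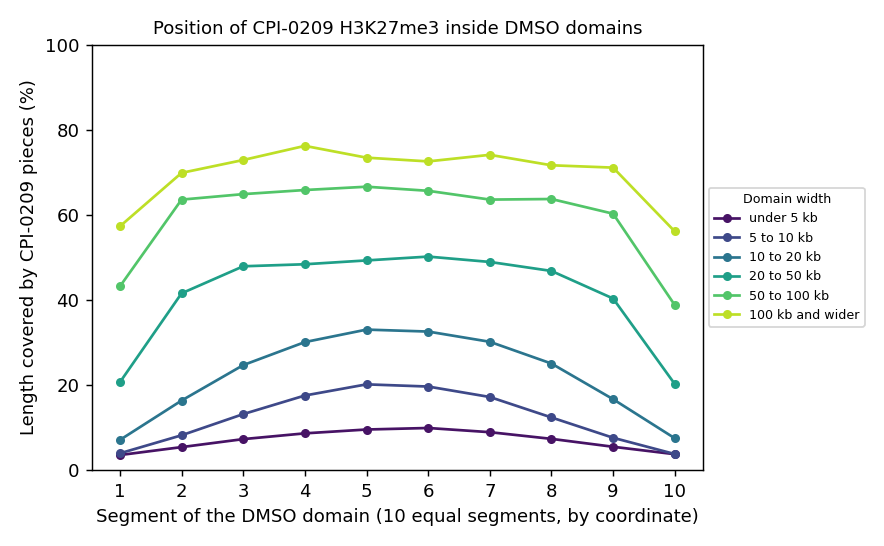
Percent of DMSO domain length under a CPI-0209 piece (y axis) in each of 10 equal segments of the domain from its lower to its higher coordinate (x axis), 1 line per width class. The lines peak in the middle for domains under 20 kb, and in the widest class the inner segments lie at 69.9 to 76.2% with lower values at the ends.

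Absolute distance from the domain end gave the same picture. Positions within 1 kb of an end were covered over 6.15% of their length, those at 2 to 5 kb over 26.4%, those at 5 to 10 kb over 43.9% and those at 20 kb and more over 69.1%. Within stretches under 2 DMSO intervals the values were 22.3%, 41.7%, 55.0% and 74.3%, and under 1 interval 2.69%, 4.37%, 6.77% and 12.3%. The slope was therefore present at either level of support. EZH2 called in DMSO had the same shape, covering 14.1% of the outermost 1 kb and 80.9% at 20 kb and more.

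A piece that fills much of its domain covers the middle wherever it is placed, so the segments alone do not show that pieces were centred. Pieces of at most 10% of their domain's width carry little of this constraint from their own width. The 3958 such pieces, with a median of 3.6 kb, were sorted by midpoint into 5 parts of equal length, which held 883, 750, 738, 732 and 855 of them. The outer parts thus held 43.9% (42.4 to 45.5%) and the middle part 18.6% (17.4 to 19.9%). Narrow pieces were found at all depths, with somewhat more in each outer part than in any inner one. Most of them, 3737, came from domains with several pieces, and 44.7% of those lay in the outer parts. In such domains a narrow piece can lie only where the other pieces do not, so its place depends on theirs. How much of the outer share this makes up was not tested. Over stretches under 2 DMSO intervals alone the outer share was 66.8%. Pieces were cut at the ends of these stretches there, which can leave narrow remainders in the outer parts. How much of the 66.8% this makes up was not tested. In the merged domains, the 221 narrow pieces that were the only piece of their domain fell into the 5 parts as 38, 48, 57, 47 and 31. Of these, 31.2% (25.2 to 37.8%) lay in the outer parts. The widest piece of each of the 3042 domains with several pieces lay in the outer parts in 19.3% (17.9 to 20.7%), a piece whose own width keeps its midpoint away from the ends.

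Domains with a single piece make the outline plain. Their median width was 11.2 kb and that of the piece 3.8 kb, leaving a median of 1.4 kb uncovered on the nearer side and 4.4 kb on the farther side. The piece covered at least 90% of the domain in 4.48% (3.97 to 5.05%) of these 5843 domains.

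Domains that were the widest of each pattern, or held the most pieces, show the range. The widest domain, 339.6 kb on 6p (chromosome 6, 21211601 to 21551200), begins over the 3′ part of CDKAL1, a tRNA-modifying enzyme, and runs on beyond it. It held 6 pieces that covered 55.7%, with 93.2 kb and 36.8 kb uncovered at its ends. The 258.4 kb domain over part of RBFOX3, a neuronal splicing factor (chromosome 17, 79087001 to 79345400), held 17 pieces and was covered over 86.0%, with 0.8 kb and 1.6 kb left at the ends. The domain with 21 pieces, the most of any, spans 258.2 kb around KCNG4, a potassium channel subunit, and ADAD2 (chromosome 16, 84188801 to 84447000), and 78.9% of it was covered. A domain can thus be cut many times and still be covered over most of its length.

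Other wide domains were cut into pieces that left more than they covered or nearly so. At SLIT1, an axon guidance ligand (chromosome 10, 97085201 to 97217200), 15 pieces covered 41.8% of 132 kb, and the widest piece measured 7.0 kb. At KCNN3, a calcium-activated potassium channel (chromosome 1, 154674401 to 154892400), 17 pieces covered 52.3% of 218 kb. At the keratin-associated protein genes KRTAP5-7, KRTAP5-8 and KRTAP5-9 (chromosome 11, 71523201 to 71644200), 15 pieces covered 48.9% of 121 kb. Whether reads can be placed uniquely among these neighbouring genes of the same family was not tested. All 3 listed starts of KCNN3 and the single listed starts of SLIT1 and KRTAP5-9 lay under a piece.

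Some wide domains were covered almost whole. The 232.4 kb domain over FIBCD1, an acetyl-group-binding membrane receptor, and LAMC3, a laminin chain (chromosome 9, 130891401 to 131123800), was covered over 96.6% in 7 pieces. The 191 kb domain with SSTR5, a somatostatin receptor, and SOX8, a developmental transcription factor (chromosome 16, 962001 to 1153000), was covered over 96.5% in 6 pieces. The 201.4 kb domain at GABRD, a GABA receptor subunit, and PRKCZ, an atypical protein kinase C (chromosome 1, 1919401 to 2120800), was covered over 95.4% in 6 pieces. In these domains the uncovered length was in short gaps and a rim of at most 2.4 kb.

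At the other extreme, wide domains kept a sliver or nothing. A 72 kb domain inside ANKH, a pyrophosphate transporter (chromosome 5, 14736601 to 14808600), held 1 piece of 2.6 kb, 9.8 kb from its lower end. A 52.4 kb domain over the leukocyte receptor genes CD300C, CD300LB and CD300H (chromosome 17, 74519601 to 74572000) held 1 piece of 1.8 kb near its middle. No piece at all was called in 141.2 kb inside SNX29, a sorting nexin (chromosome 16, 12215601 to 12356800), in 121.4 kb inside FRMD4A (chromosome 10, 14107001 to 14228400), or in 58.6 kb over the Fc receptor genes FCGR2B, FCRLA and FCRLB (chromosome 1, 161671001 to 161729600). FARP1, a guanine nucleotide exchange factor, held both a 60.8 kb domain with no piece and a 58.4 kb domain with a single 3.4 kb piece. Both listed starts of FRMD4A and of FARP1 lay under a piece elsewhere in the gene, so within 1 gene the start and the body differed. FCGR2B has near-identical paralogs beside it, where read placement is uncertain.

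Coverage was highest at the starts of genes. Strand and start came from the promoter table, which holds 15812 of the 19974 protein-coding genes. Chromosome 8 was left out of every count of starts. Starts of the 4162 genes without an entry were not seen. A domain, piece or position counted below as without a start, or far from every start, may therefore hold or adjoin an unlisted one. Domain positions within 1 kb of a protein-coding start were covered over 66.2% of their length, those at 2 to 5 kb over 40.4% and those 50 kb and farther over 32.8%. Near the 3′ end of a gene record the gradient was shallower, with 46.1% within 1 kb and 32.3% at 50 kb and farther. For both ends together the values were 58.8% and 29.6%, a difference of 29.2 points, which was 17.4 points when non-coding gene records were counted too. Close to a start, EZH2 in DMSO covered 71.6% of domain length, against 40.5% at 50 kb and farther.

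The gradient at starts was present within single domains. Of 1583 domains that hold length both within 2 kb of a start and at least 10 kb from every start, the near length was covered more in 1113 and the far length in 314, with the remainder equal. Over these domains the near length was covered over 73.4% and the far length over 57.9%. Distance from the domain end and from starts was then read together. Within 1 kb of a start, coverage was 26.2% in the outermost 1 kb of a domain and 89.99% at 20 kb and more from its ends. At least 10 kb from every start it was 5.08% and 68.0%. The gap was wider in between, with 67.0% against 23.2% at 2 to 5 kb, 78.0% against 41.3% at 5 to 10 kb and 88.5% against 55.3% at 10 to 20 kb. Under 2 DMSO intervals, 79.8% of the length within 1 kb of a start was covered and 52.8% of the length at least 10 kb away.

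Whether a domain held any piece also went with starts. Of 3298 domains with a listed protein-coding start, 2620 held a piece (79.4%, 78.0 to 80.8%). Of 17372 without a listed one, 5889 did (33.9%, 33.2 to 34.6%). The contrast in points was largest at 5 to 10 kb, with 66.9% (63.7 to 70.1%) and 20.4% (19.4 to 21.5%). Under 5 kb the shares were 46.6% (41.2 to 51.9%) and 8.86% (8.04 to 9.74%), at 10 to 20 kb 79.7% and 46.8%, and at 50 to 100 kb 99.4% and 98.3%. Most pieces nevertheless covered no listed start, since 2467 of 15182 did (16.2%, 15.7 to 16.8%). Pieces held 29.7 starts per Mb, the uncovered length of the same domains 5.82 and domains without a piece 8.66.

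In domains with 1 listed start and 1 piece the piece could lie over the start or over the middle. Among 624 such domains of 10 to 50 kb, the piece covered the start in 507 (81.2%, 78.0 to 84.2%) and the midpoint in 375 (60.1%, 56.1 to 64.0%). With the domain in 5 equal parts and the start in those beside the middle one, the piece covered it in 89.2% (85.1 to 92.5%) of 297 domains and the midpoint in 52.9% (47.0 to 58.7%). Where the start lay in the outer parts, the shares were 55.2% (47.0 to 63.2%) and 45.5% (37.4 to 53.7%) of 154 domains. Where the start lay in the middle part itself, the shares were 90.8% (85.4 to 94.6%) and 85.5% (79.4 to 90.4%) of 173 domains. The piece's own midpoint lay nearer to the start than to the domain's midpoint in 55.1% (51.1 to 59.1%) of the 624, and in 42.9% (34.9 to 51.1%) of those with the start in an outer part. The covered start and the covered midpoint were scored on the same domains. Their separate limits therefore do not measure the difference between them, which was not tested.

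Around starts deep inside domains, coverage formed a peak leaning downstream. Among 686 promoters with at least 10 kb of domain on both sides, 91.3% of starts lay under a piece. Coverage was 55.7% at 10 kb upstream, 68.7% at 3 kb upstream, 76.1% at 3 kb downstream and 63.0% at 10 kb downstream. Over the stretch from 2 to 10 kb, coverage averaged 60.1% upstream and 69.5% downstream of 701 promoters, a set counted by whole windows of 200 bp that admits slightly more than the 686. The downstream side was covered more at 340 and the upstream side at 225, which is 60.2% (56.0 to 64.2%) of the unequal ones. A piece over a start reached a median of 2.04 kb upstream and 3.02 kb downstream. EZH2 in DMSO covered 92.4% of these starts, 67.8% of positions 10 kb upstream and 73.5% of those 10 kb downstream.

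**Figure D3:**
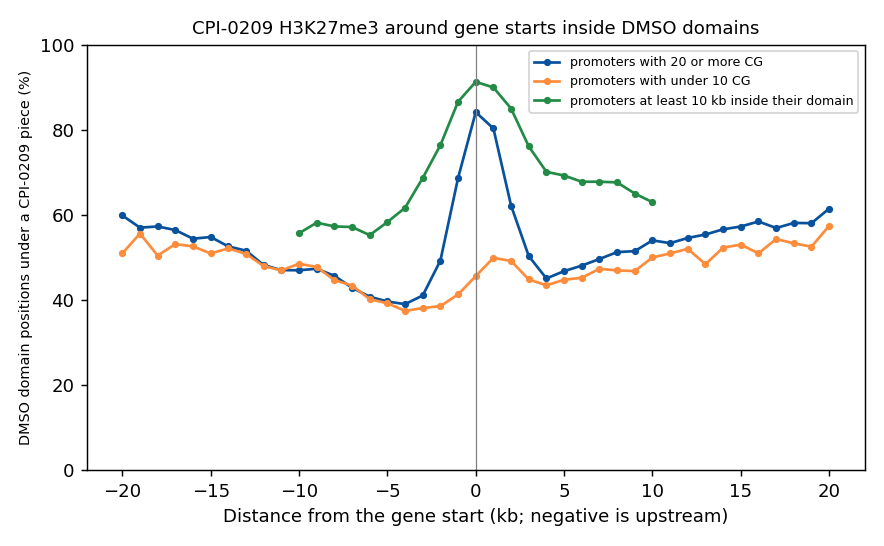
Percent of DMSO domain positions under a CPI-0209 piece (y axis) at each distance from a protein-coding gene start (x axis, kb, negative upstream), counting only positions in the domain of that start, for promoters with 20 or more CG, promoters with under 10 CG, and all promoters at least 10 kb inside their domain. The deep promoters reach 91.3% at the start, promoters with 20 or more CG 84.1% and those with under 10 CG 45.6%, and the latter have no sharp peak.

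CG content separated the starts that lay under a piece from those that did not. With 1 promoter per gene, 3288 promoters lay in a DMSO domain and 2291 of them under a piece (69.7%, 68.1 to 71.2%). Promoters under a piece had a median of 23 CG in 300 bases, those in the same kind of domain but outside its pieces 7 CG (411 promoters), and those in domains without a piece 7 CG (586). The median over all 15812 promoters was 22 CG. Promoters under a piece thus had about the CG number of all promoters, and those left uncovered were poor in CG. Of promoters with 0 to 4 CG in a domain, 33.7% (29.5 to 38.0%) lay under a piece, of those with 10 to 19 CG 74.3% (70.7 to 77.6%), and of those with 30 and more 87.2% (84.9 to 89.2%).

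The order by CG was steeper in narrow than in wide domains. In domains of 5 to 10 kb, 11.9% (6.93 to 18.5%) of promoters with 0 to 4 CG and 85.5% (80.3 to 89.8%) of those with 30 and more lay under a piece. In domains of 50 to 100 kb the shares were 66.7% (53.3 to 78.3%) and 90.8% (84.4 to 95.1%). Distance from the domain end did not remove the order either. In the outermost 1 kb, 9.74% of promoters with under 10 CG and 39.5% of those with 20 or more lay under a piece, and at 20 kb and more 83.9% and 97.3%.

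**Figure D4:**
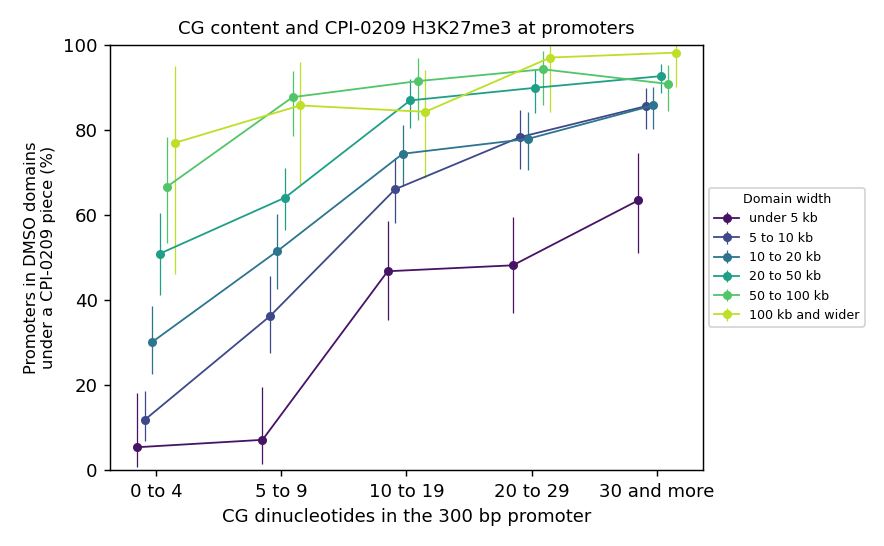
Percent of promoters in a DMSO domain whose start lay under a CPI-0209 piece (y axis), by the number of CG dinucleotides in the 300 base promoter (x axis) and by domain width (lines); bars are exact 95% limits for counting error. In domains of 5 to 10 kb the share goes from 11.9% to 85.5%, and in the widest class from 76.9% to 98.1%.

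EZH2 in DMSO moved with CG content as well, and its part in the order by CG was not tested. EZH2 was called at 38.1% of domain promoters with 0 to 4 CG and 88.6% of those with 30 and more. Among promoters with EZH2, the shares under a piece were 66.5% (59.3 to 73.2%) and 91.2% (89.0 to 93.0%) in these 2 classes, and among promoters without EZH2 13.4% (9.82 to 17.8%) and 56.1% (46.1 to 65.7%). The order was therefore seen at either state of EZH2, with lower levels where EZH2 had not been called. EZH2 separated domain length near and far from starts alike. At least 10 kb from every start, 68.7% of length with EZH2 and 9.41% of length without was covered, and within 1 kb of a start 83.0% and 23.7%.

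A pair of short motifs was searched on both strands of each 300 base promoter. GGGCGG, the core of the GC box bound by SP1 and itself holding a CG, was found in 65.3% of promoters under a piece, 36.3% of those outside pieces, 35.0% of those in domains without a piece and 58.3% of all promoters. TATAAA, the TATA box, was found in 9.21%, 11.4%, 13.1% and 9.75% of these sets.

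Gene lists were then read by whether their starts lay under a piece. The lists were chosen with earlier results of these data known, so the limits below describe counts and are no test of a list. Whether a list differs from other genes of like CG content and domain width was not tested. Over all protein-coding genes with a start in a DMSO domain, 2445 of 3451 had at least 1 start under a piece (70.8%), 387 had starts in a domain with pieces but outside them, and 619 lay in domains without a piece. HOX genes, which set positional identity along the body axis, had 20 of 39 members in the promoter table, and all 20 lay in domains and under pieces (83.2 to 100%). They sit in 5 domains and have 19 different start sites, so they are not 20 separate events. HOXA2 and HOXA4 lay under a 31.2 kb piece and HOXA3 and HOXA6 under a 61 kb piece of a 188.6 kb domain with 7 pieces (chromosome 7, 27082201 to 27270800). HOXB1, chosen after its value was seen, lay under a 3.0 kb piece of a 134.2 kb domain (chromosome 17, 48521001 to 48655200), so a HOX start could sit under a narrow piece in a wide domain.

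Of 64 other developmental transcription factors with a listed start, 52 lay in a domain and 50 of these under a piece (96.2%, 86.8 to 99.5%), with a median of 23 CG. The 52 sit in 51 domains, and the domains of EVX1 and EVX2 also hold HOX genes, so not all are separate events. At PAX2, a regulator of kidney and optic nerve development, an 18.8 kb piece covered the start in a 59.6 kb domain with 6 pieces. At PAX3, a neural crest and muscle progenitor factor, a 19 kb piece lay in a 40.2 kb domain. At PAX6, the eye and pancreas regulator, the start lay 1.36 kb from the domain's end and under a 4.4 kb piece that did not reach it. At GATA6, an endoderm factor also chosen after its value was seen, the single 8.0 kb piece of a 30.2 kb domain lay at the very end that holds the start, 1.61 kb from the border. The 2 exceptions were FOXD1, whose start lay 0.824 kb outside the nearest of 3 pieces, and SOX3 on the X chromosome, whose 9.8 kb domain held none.

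Secreted signalling genes and neuronal genes in domains were all under pieces. Of the signalling list, 20 of 20 were (83.2 to 100%), with a median of 30 CG and a median domain of 16.2 kb. WNT1 lay under a 6.6 kb piece of a 43.4 kb domain, WNT2 under a 4.6 kb piece of 12.2 kb, WNT2B under 1.8 kb of 10.2 kb and WNT3 under 16 kb of 116.8 kb. Of the neuronal list, 15 of 15 were (78.2 to 100%). NEUROG1, NEUROG2, NEUROG3 and NEUROD1, which drive neuronal and endocrine differentiation, lay under pieces of 15.8 kb, 11.4 kb, 12.4 kb and 5.0 kb. CHGA, a protein of neuroendocrine granules chosen after its value was seen, had its start 0.45 kb from the end of an 11.2 kb domain, and the only piece, 1.8 kb wide, lay at that end.

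The tissue lists had few members in a domain, and their limits include the 70.8% over all genes. A domain held 8 of 10 muscle, 3 of 21 keratinocyte and 6 of 14 urothelial genes with a listed start. Over all genes with a listed start that share was 21.8%. Of 8 muscle genes in a domain, 5 lay under a piece (24.5 to 91.5%). MYF5, MYOG, ACTA1 and MYH6 were among them, and MYF6 and TNNT1 lay in domains of 4.4 kb and 5.8 kb with no piece. The creatine kinase gene CKM lay 0.126 kb outside a piece. That is closer than 1 window of 200 bp, so its place outside is at the limit of what the lists can resolve. Of 3 keratinocyte genes, LORICRIN and TGM3, of the cornified envelope, lay under pieces, and S100A7 (psoriasin) in a 12.2 kb domain with none. Of 6 urothelial genes, GATA3, FOXA1, SHH and BMP4 lay under pieces. The uroplakin gene UPK1A lay 0.916 kb from its domain's end and 1.28 kb from a piece, and GRHL3, an epithelial barrier factor, lay in a 10.4 kb domain with none. SHH and BMP4 are in the signalling list too.

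Genes of other cell types in a domain were few, at 6 of 9 blood cell and 2 of 10 liver genes with a listed start. Of 6 blood cell genes, PAX5, CD8A, IKZF1 and TAL1 were among the 5 under a piece and CD79A was not, and both liver genes in a domain, HNF4A and CYP2E1, were. PAX5 is in the list of developmental transcription factors too. Of all 15812 genes with a listed start, 3451 lay in a DMSO domain (21.8%, 21.2 to 22.5%). None of 16 housekeeping genes did, which by a limit of 3 counts allows a share of up to 18.8%, and none of 14 genes of PRC2 and the H3K27 demethylases did, which allows up to 21.4%, about the share over all genes.

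Chromosome arms differed in how much was covered, and kept the same layout. Of 42 arms with a domain, 41 had at least 1 Mb of domain length. Their retained length had a median of 33.9% and went from 9.69% on Xp and 16.2% on 4q to 48.2% on 4p and 49.4% on 9q. In 41 of the 41 arms the middle segments were covered more than the end segments, and the median setback lay between 1.9 kb and 3.8 kb. The short arm had the higher value on 8 of 18 chromosomes with both.

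Arms at the ends of this range differed in domain width. Xp had no domain of 50 kb and wider among 297, and on 4q such domains held 2.19% of the domain length, against 42.7% on 9q. In domains of 20 to 50 kb, which 38 arms had at least 20 of, the retained length went from 28.3% on 18p to 59.5% on 19p, with a median of 39.7%. Here 9q had 44.4% and 4p 58.7%, so 9q was no longer the highest. Over the same 38 arms, the retained length of all domains went from 23.4% on 9p to 49.4% on 9q. The range was thus no narrower in domains of 20 to 50 kb. Xp, Xq and 4q had 7, 17 and 17 domains of that width and are not ranked in this class.

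**Figure D5:**
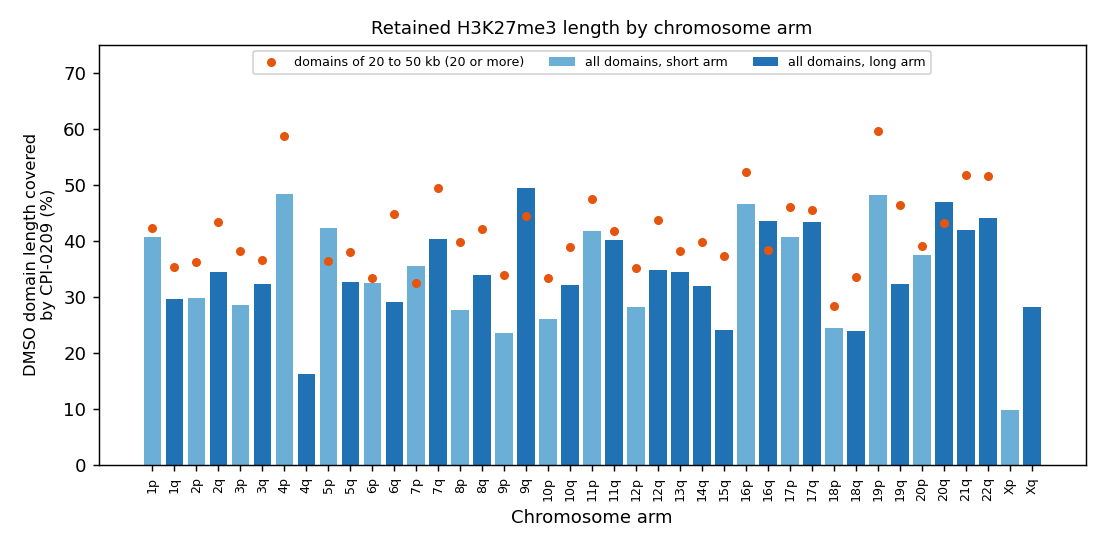
Percent of DMSO domain length under CPI-0209 pieces (y axis) for each chromosome arm with at least 1 Mb of domains (x axis); bars show all domains and points domains of 20 to 50 kb, where the arm has at least 20 of them. Bars go from 9.69% on Xp to 49.4% on 9q, and points from 28.3% on 18p to 59.5% on 19p.

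EZH2 domains were measured in the same way. The lists differ in size: the merged EZH2 list spans 193.4 Mb for DMSO but 226.3 Mb for CPI-0209, whereas the H3K27me3 lists span 315.1 Mb and 113.8 Mb, and the part of list size in the values that follow was not tested. Of 18639 DMSO EZH2 domains, 16311 held a CPI-0209 EZH2 piece (87.5%, 87.0 to 88.0%), and 89.2% of these held exactly 1, with 5 at most. Both ends were reached in 39.4% (38.6 to 40.2%) and neither in 18.7% (18.1 to 19.3%), and the median setback was 0. Retained length was 78.2%. The end segments were covered over 64.3% and the middle ones over 85.6%. The difference from H3K27me3 was not tested.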

How the data were processed

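ChIP-seq intervals of 4 libraries, 1 per group, were analysed; an input library was not used. The members and gene lists were chosen with earlier results of these data known. The deposited lists give, per the file headers, chromosome, start and end only, with no score; the submitters' processing notes name BWA, SICER and hg38 with no role or version. Use of the input as control was not given in the sources used here, and depth is unknown. Starts count from 0 in the lists and from 1 here. Rows overlapping by at least 1 bp were merged within each list, and CPI-0209 intervals were cut to DMSO domains in Python 3.11.15 with numpy 2.4.6 and pandas 2.3.3; the geometry was tested on simulated intervals. An end counted as reached within 200 bp. Gene records and promoters came from RefSeq tables of GRCh38.p14, the assembly of hg38; exons and introns were not told apart. With several listed starts per gene, promoter counts used the outermost one, and list counts the best-covered one. Arms were divided at centromere positions rounded to 1 Mb. Domains named were the 6 widest, most divided, least and most covered, and widest without a piece, at most 1 per arm, with up to 3 genes, and the first 4 members per list and outcome; a selection is printed. Limits are Clopper-Pearson (scipy 1.17.1), except that a count of 0 is given the limit of 3 counts. No paired analysis was possible because each group has 1 library.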

Additional observations from a re-analysis of the deposited data

How the results depend on the processing

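With 1 library per group and no read counts, depth cannot be set against any of these values. Merging touching intervals, or counting only pieces of at least 1 kb, moved no share of domains or pieces beyond its counting limits. Retained length and the differences in points are not counts and have no such limits. Under these settings retained length was 35.8% and 35.8%, and middle minus end segments 23.1 and 23.2 points. The difference by distance to gene ends was 29.2 and 29.1 points. Joining gaps of up to 5 kb in both lists gave a retained length of 37.7%, domains with a piece 44.7%, with 2 or more 12.8%, middle minus end segments 16.9 points, narrow pieces in the outer parts 49.2% and neither end reached 84.1%. For DMSO stretches under 2 intervals, pieces were cut at the stretch ends, which bears on the outer share and on neither end reached. These stretches gave 54.5%, 59.0%, 14.1%, 26.3 points, 66.8% and 39.9% for the same values. The difference between positions within 1 kb of a gene end and those at 50 kb and farther was 25.4 points. That last difference was 29.2 points as reported, 17.4 with all gene records and 33.4 with starts only. The share with neither end reached was 83.8% with no tolerance and 59.5% with 1 kb. Narrow pieces defined as at most 5% of the domain gave 45.6% in the outer parts. The range over arms, 39.7 points, was 36.8 points without domains within 3 Mb of a chromosome end or centromere, and Xp and 9q stayed its ends. Taking every listed start in place of 1 per gene, an alternative chosen after seeing the data, gave 39.7 points between promoters with 20 or more CG and those with under 10, against 38.5. No value changed sign. The cause of these shifts was not tested. No paired analysis was possible because each group has 1 library.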

Other observations

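The other domains with 1 piece and 2 gene starts, of which 1 lay under the piece, give single cases of the same comparison. CXCL1, a neutrophil chemokine with 22 CG in its promoter, lay under the piece of a 20.8 kb domain on chromosome 4 and PF4V1, a platelet chemokine variant with 5 CG, did not. EVC2, with 32 CG, lay under the piece of a 6.6 kb domain and its divergent neighbour EVC, with 13 CG, did not. PROB1, with 25 CG, was covered in a 7.0 kb domain and MZB1, a plasma cell chaperone with 4 CG, was not. In the opposite direction, CIZ1 with 19 CG was covered and DNM1, a neuronal dynamin with 36 CG, was not, in a 10.4 kb domain. TTC22 with 17 CG was covered and CIMAP2 with 18 CG was not, in an 11.4 kb domain. PCDHGA2 and PCDHGA3, with 5 and 4 CG, belong to a protocadherin cluster of similar copies, and OR3A2 and OR1R1, with 39 and 10 CG, to olfactory receptor families, where read placement is uncertain.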
